A study of Mus musculus with 24 samples.

Results

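The 10 genes described here mark the wall of small brain vessels and were followed through 12 RNA libraries of mouse striatum: the endothelial genes Cldn5, Flt1, Pecam1, Slco1a4 and Cdh5, and the mural cell genes Pdgfrb, Rgs5, Vtn, Acta2 and Abcc9. They were taken by name as established markers of each cell type and are 10 of the 37289 genes in the deposited tables. All 10 passed the filter on low counts, and they are 10 of the 15955 genes tested. The libraries came from female C57BL/6 mice that carried 1 mutant copy of Cntnap2 (het) or were wild type. Cntnap2 encodes the neuronal adhesion protein Caspr2. The 4 groups of 3 mice were het mice exposed to stress before birth, wild-type mice exposed to stress before birth, het mice without that stress, and wild-type mice without it, the last 2 called control. In the stressed groups the dams, which carried embryos of both genotypes, went through a variable stress of 7 days that began on embryonic day 12.5. All pups were ear-tagged on postnatal day 12 and weaned on postnatal day 18, and the labels give no age at death. Striatum was taken by micropunch from frozen brain, so each library is a mix of all cells of the punch. Each mouse gave 1 library, and littermates may share a group, so a p-value here reflects how much these individual mice differed.

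The smallest vessels of the brain are tubes of endothelial cells joined by tight and adherens junctions, which form the blood-brain barrier together with selective transporters. Mural cells sit on these tubes: pericytes on capillaries, and contractile smooth muscle cells on arterioles. Endothelial cells secrete PDGF-B, which holds pericytes on the vessel through the receptor Pdgfrb, and pericytes in turn are needed for a tight barrier.

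The het libraries held 21410135 to 24039706 expected counts and the wild-type libraries 13587154 to 18538304, so depth and genotype cannot be told apart. The libraries also differed in how counts were spread over short and long transcripts. This was measured as a length slope, the slope of each gene's log2 CPM (counts scaled to the library total) relative to its mean over the libraries on its log2 effective length. It was 0.060, 0.00064 and 0.072 in het stressed mice, -0.077, -0.068 and 0.27 in wild-type stressed mice, -0.34, 0.017 and 0.13 in het control mice, and -0.27, -0.048 and 0.25 in wild-type control mice. A positive slope means relatively more counts on long transcripts. Xist, the RNA of the inactive X chromosome in females, was at 1.32 TPM in the library labelled wild-type stressed replicate 2 and at 23.09 to 108.58 TPM in the other 11. The deposited file of het control replicate 1 carries a different animal number from its label. The genotype check on Cntnap2 itself did not separate the groups, with 35.97 to 59.45 TPM in het mice and 39.69 to 68.27 TPM in wild-type mice. Striatal neuron markers summed to 3795 to 8372 TPM, as the tissue label says.

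Levels are first given as TPM, the share of each transcript in the library per unit of transcript length, which can be compared between genes. Cldn5, whose claudin seals the tight junctions, was the most abundant member, at a mean of 54.8 ± 7.33 TPM (SD, n = 12). Its TPM was 62.69, 59.15 and 51.89 in het stressed mice, 42.12, 52.73 and 55.15 in wild-type stressed mice, 47.32, 53.39 and 64.72 in het control mice, and 66.98, 49.94 and 51.98 in wild-type control mice. The groups overlapped, and wild-type control replicate 1 was the highest library and wild-type stressed replicate 1 the lowest. In every library Cldn5 lay within 1.59 times its lowest value.

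Slco1a4, an organic anion transporter of the barrier, averaged 22.3 ± 7.08 TPM over the 12 libraries. Its TPM was 28.0, 23.57 and 26.63 in het stressed mice, 20.27, 16.79 and 32.58 in wild-type stressed mice, 10.27, 19.51 and 29.07 in het control mice, and 12.82, 18.29 and 29.63 in wild-type control mice. The libraries labelled replicate 3 of the wild-type stressed, het control and wild-type control groups were high and replicate 1 of both control groups low, while the 3 het stressed libraries lay close together. Flt1, a receptor for VEGF, averaged 8.88 ± 4.55 TPM. Its TPM was 9.78, 7.88 and 7.06 in het stressed mice, 5.77, 4.92 and 16.67 in wild-type stressed mice, 2.98, 8.18 and 13.73 in het control mice, and 5.73, 6.98 and 16.86 in wild-type control mice. The same 3 libraries were high, and the highest Flt1 level was 5.66 times the lowest.

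Pecam1, an adhesion molecule at the contacts between endothelial cells, averaged 7.42 ± 2.83 TPM. Its TPM was 9.43, 6.89 and 7.18 in het stressed mice, 6.28, 5.21 and 11.09 in wild-type stressed mice, 3.14, 7.1 and 11.98 in het control mice, and 4.47, 5.42 and 10.87 in wild-type control mice. Cdh5, the VE-cadherin of endothelial adherens junctions, averaged 3.31 ± 1.37 TPM. Its TPM was 3.8, 3.07 and 2.97 in het stressed mice, 2.21, 2.2 and 5.94 in wild-type stressed mice, 1.57, 3.21 and 4.55 in het control mice, and 2.11, 2.67 and 5.4 in wild-type control mice. For both genes, too, the values of the 4 groups overlapped, and het control replicate 1 was the lowest library.

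Among the mural genes, Vtn, which encodes the matrix protein vitronectin and is a pericyte marker in brain, averaged 52.4 ± 12.4 TPM. Its TPM was 55.96, 50.94 and 49.51 in het stressed mice, 43.3, 37.97 and 68.86 in wild-type stressed mice, 32.83, 53.2 and 72.69 in het control mice, and 54.98, 42.13 and 66.83 in wild-type control mice. Rgs5, a regulator of G protein signalling found in pericytes, averaged 36.02 ± 7.86 TPM. Its TPM was 35.82, 38.91 and 44.89 in het stressed mice, 28.81, 30.53 and 43.4 in wild-type stressed mice, 21.82, 37.91 and 44.33 in het control mice, and 27.91, 31.92 and 45.98 in wild-type control mice. Both were lowest in het control replicate 1, and their groups overlapped.

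Acta2, the smooth muscle actin, averaged 9.50 ± 2.61 TPM. Its TPM was 10.79, 8.77 and 8.86 in het stressed mice, 7.87, 7.39 and 11.83 in wild-type stressed mice, 6.08, 9.74 and 14.81 in het control mice, and 9.89, 5.86 and 12.05 in wild-type control mice. It was highest in het control replicate 3 and lowest in wild-type control replicate 2. Reads of Acta2 could in part come from other actin genes and those of Slco1a4 from other members of its family, so their origin is uncertain. Pdgfrb, the receptor for PDGF-B, averaged 3.99 ± 1.68 TPM. Its TPM was 4.61, 3.83 and 3.68 in het stressed mice, 3.0, 3.01 and 7.02 in wild-type stressed mice, 1.41, 3.9 and 5.82 in het control mice, and 2.51, 2.74 and 6.36 in wild-type control mice. Abcc9, the sulphonylurea receptor subunit of a potassium channel in pericytes and smooth muscle, was the least abundant member, at 1.34 ± 0.919 TPM. Its TPM was 1.23, 1.24 and 0.91 in het stressed mice, 1.13, 0.7 and 3.63 in wild-type stressed mice, 0.32, 1.01 and 1.81 in het control mice, and 0.59, 1.02 and 2.5 in wild-type control mice. In Pdgfrb and Abcc9 the library wild-type stressed replicate 3 was the highest and het control replicate 1 the lowest.

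**Figure D1:**
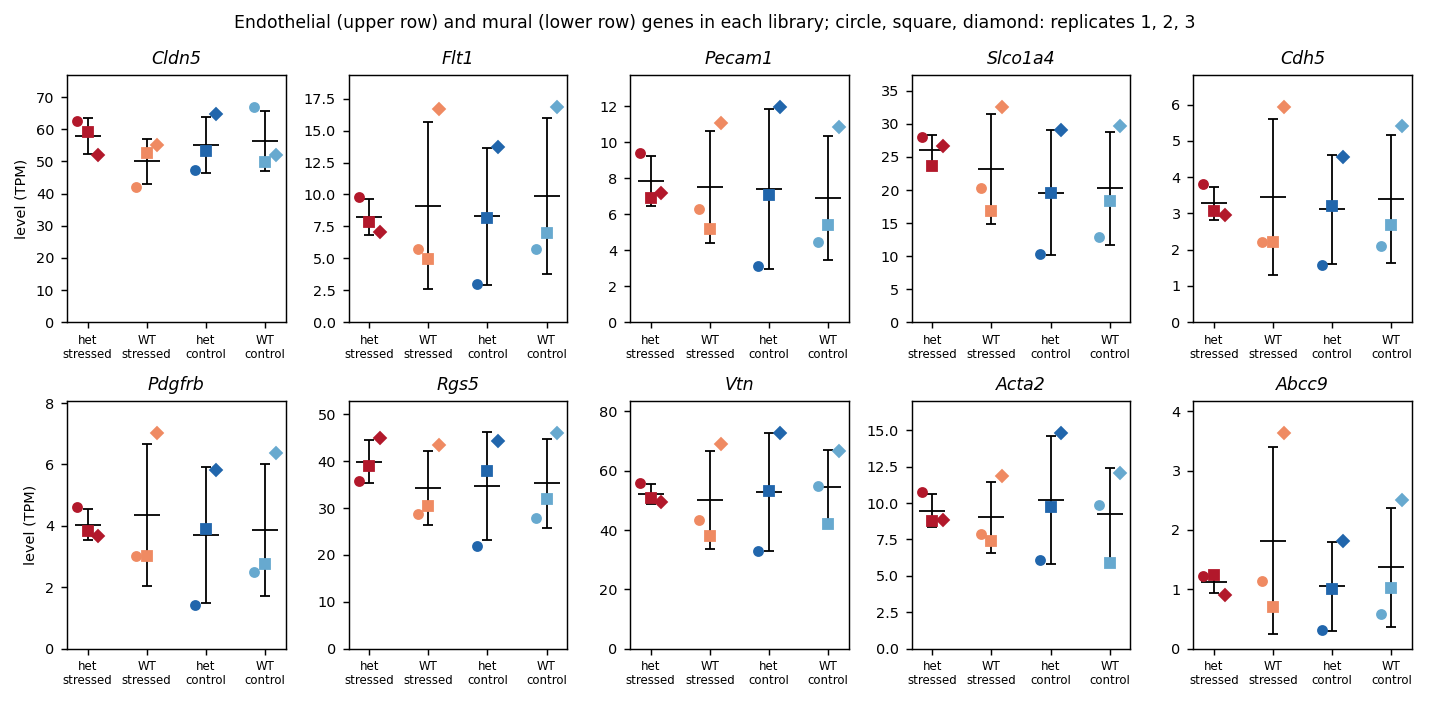
TPM of each gene (y axis, from 0) in the 12 libraries by group (x axis), with points for the libraries (circle, square and diamond for replicates 1, 2 and 3) and bars for the group mean ± SD (n = 3). The groups overlapped for every gene, and Flt1 in the 3 wild-type control mice lay at 5.73, 6.98 and 16.86 TPM.

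The order of the mean levels was Cldn5, Vtn, Rgs5, Slco1a4, Acta2, Flt1, Pecam1, Pdgfrb, Cdh5 and Abcc9. Of the 9 pairs of neighbours in this order, 5 held in all 12 libraries, among them Vtn above Rgs5, Rgs5 above Slco1a4 and Cdh5 above Abcc9. Cldn5 was above Vtn in 8 of 12 libraries, Acta2 above Flt1 in 9, Flt1 above Pecam1 in 8 and Pdgfrb above Cdh5 in 11. These pairs did not keep the same order in every library, and the differences in level between neighbours were not tested.

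To compare the spread of each gene over libraries, counts were scaled to CPM with TMM factors, a scale that is not per length. On this scale Rgs5 varied least, with 90.2 to 117 CPM and a coefficient of variation of 8.51%. Abcc9 varied most, with 2.43 to 13.6 CPM, a 5.58-fold range and a coefficient of variation of 54.8%. The median coefficient of variation was 24.1% over the 10 members, against 20.5% over all genes tested. On TPM the order was different: Cldn5 varied least, at 13.4%, Rgs5 was at 21.8%, and Abcc9 again varied most, at 68.5%.

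The promoters of Flt1, Abcc9 and Cldn5 are shown because the log2 CPM of Flt1 and Abcc9 followed each other most closely among the endothelial and mural pairs with a promoter window, while Cldn5 followed neither. The windows run from 250 bases before to 50 bases after the start of the gene and are from RefSeq, build GRCm38.p6, 5′ to 3′ on the gene's strand. RefSeq gave a window for 7 of the 10 members. Capitals mark AGGAAG, a form of the site bound by the ETS family of factors, which includes endothelial regulators. Other forms of that site were not searched. The GC box GGGCGG, which reads CCGCCC where it lies on the opposite strand, is also in capitals.
Flt1: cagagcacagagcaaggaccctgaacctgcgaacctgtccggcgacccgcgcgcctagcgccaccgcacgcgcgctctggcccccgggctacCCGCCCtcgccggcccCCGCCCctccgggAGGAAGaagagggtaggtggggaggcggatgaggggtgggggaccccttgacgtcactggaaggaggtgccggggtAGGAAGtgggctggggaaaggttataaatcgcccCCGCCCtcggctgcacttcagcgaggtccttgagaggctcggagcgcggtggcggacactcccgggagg
Abcc9: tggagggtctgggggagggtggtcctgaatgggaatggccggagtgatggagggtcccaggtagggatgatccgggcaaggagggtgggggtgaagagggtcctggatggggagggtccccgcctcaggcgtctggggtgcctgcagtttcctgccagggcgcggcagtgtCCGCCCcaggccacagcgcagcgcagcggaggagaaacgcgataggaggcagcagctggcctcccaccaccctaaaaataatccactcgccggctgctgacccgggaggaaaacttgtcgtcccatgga
Cldn5: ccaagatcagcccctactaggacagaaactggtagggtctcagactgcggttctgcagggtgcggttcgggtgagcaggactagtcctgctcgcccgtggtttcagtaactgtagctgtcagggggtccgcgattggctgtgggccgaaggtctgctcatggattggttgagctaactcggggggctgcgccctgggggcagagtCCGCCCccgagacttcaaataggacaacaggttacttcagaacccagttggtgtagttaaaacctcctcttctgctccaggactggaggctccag
The Flt1 window lies at chr5:147725962-147726261 on the minus strand, the Abcc9 window at chr6:142702225-142702524 on the minus strand and the Cldn5 window at chr16:18776597-18776896 on the plus strand. The Flt1 window held AGGAAG 2 times, at positions -129 and -53 from the start, and 3 GC boxes. The Abcc9 window held 1 GC box at position -79 and no AGGAAG, and the Cldn5 window 1 GC box at position -45 and no AGGAAG. Searched on both strands, AGGAAG stood in 35.4% and the GC box in 35.7% of all 32851 windows. No match of one overlapped a match of the other in the windows printed. Among the other 4 windows, that of Slco1a4 held AGGAAG 1 time, at position -104, and those of Vtn, Rgs5 and Acta2 held neither motif. The TATA box letters TATAAA, present in 13.6% of all windows, stood in that of Flt1 at position -31. In that of Vtn they stood farther from the start, at positions -137, on the opposite strand, and -135. These matches describe the letters of the windows only.

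The comparison of stressed with control mice addresses whether stress before birth left a mark on striatal RNA. No endothelial or mural gene passed the test in either genotype. In a bulk punch, fewer vessel cells and less RNA per vessel cell could not be told apart. In het mice, stressed against control, 0 of the 10 members were called by edgeR's quasi-likelihood test with Benjamini-Hochberg adjustment over all genes tested, where 0.0% of all genes were called. At an unadjusted p under 0.05, 0 members and 179 genes, 1.12% of those tested, passed. In het mice 9 of the 10 log2 fold changes were below 0, with a median of -0.084, against a median of 0.0026 over all genes tested. Acta2 had the most negative value, -0.29 ± 0.25 (SE; 95% interval -0.84 to 0.25; adjusted p = 0.99995), and Slco1a4 the only positive one, 0.11 ± 0.20. The median became -0.31 without het control replicate 1, the library whose animal number differs from its label. Among the 5 endothelial genes 1 was above 0, and among the 5 mural genes 0 were.

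In wild-type mice, stressed against control, edgeR again called 0 of 10 members, where 0.0% of all genes were called. At an unadjusted p under 0.05, 0 members and 397 genes, 2.49% of those tested, passed. The members were split, with 4 above and 6 below 0 and a median of -0.051, against -0.0058 over all genes tested. The tight junction gene Cldn5 had the most negative value, -0.25 ± 0.22 (95% interval -0.74 to 0.24), and Abcc9 the most positive, 0.22 ± 0.58. The Cldn5 value turned to 0.054 without wild-type control replicate 1, in which the gene was highest, and the median of the members turned to 0.094 without wild-type stressed replicate 2, the library with low Xist.

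The precision differed between genes. The interval of the stress difference in wild-type mice ran from 0.777-fold to 1.16-fold for the pericyte gene Rgs5 and from 0.737-fold to 1.36-fold for the transporter Slco1a4. It ran from 0.451-fold to 1.80-fold for Flt1 and from 0.483-fold to 2.83-fold for Abcc9. Changes within these limits therefore remain possible for these 2 genes. Averaged over genotype, edgeR called 0 members and 0.0% of all genes for stress, and 0 members and 374 genes passed at an unadjusted p under 0.05, 2.34% of those tested. The interaction of genotype and stress, which asks whether the stress difference itself differed between het and wild-type mice, also gave 0 called members, 0.0% called genes and a smallest unadjusted member p of 0.593 by edgeR. For the interaction, 1.33% of all genes had an unadjusted p under 0.05 and 0 members did. On log2(TPM + 1), the difference between the 6 stressed and the 6 control mice was largest for Slco1a4, at 24.6 ± 5.66 TPM in stressed mice and 19.9 ± 8.05 TPM in control mice (SD, n = 6 each; two-sided exact permutation p = 0.225).

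**Figure D2:**
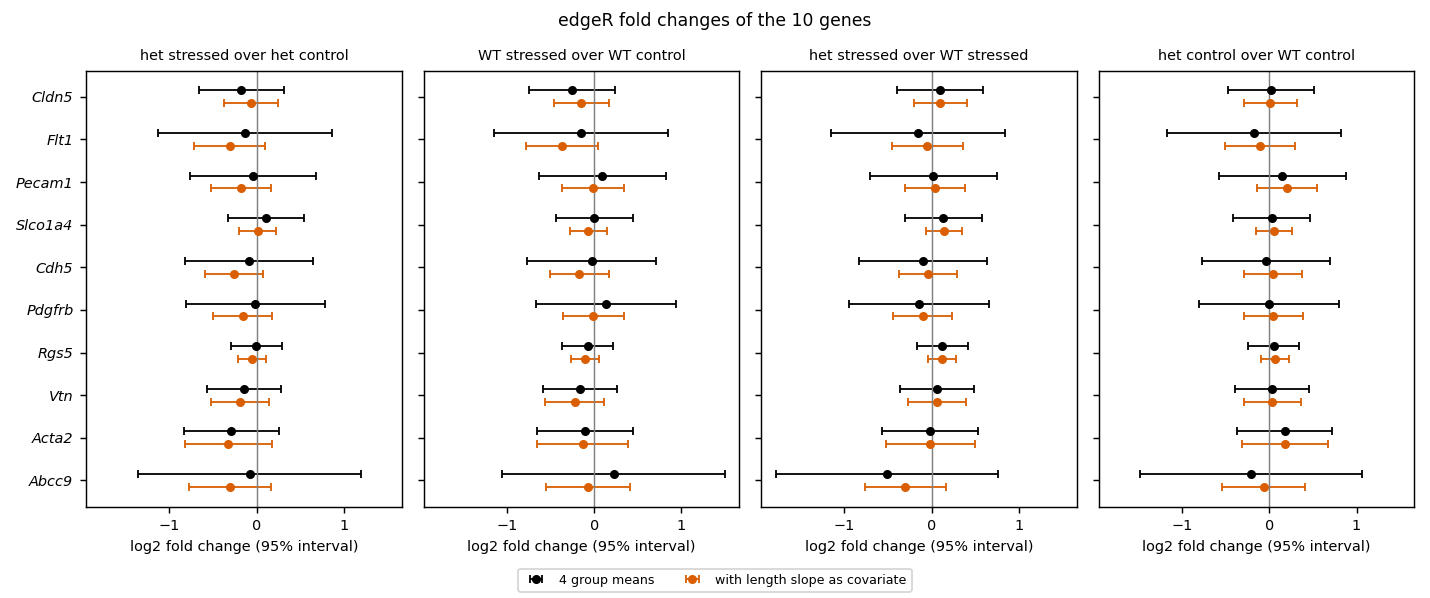
edgeR log2 fold changes (x axis) with 95% intervals for the 10 genes (y axis) in 4 comparisons, each with 4 group means (black) and with the length slope of the library as a covariate (orange). All 80 intervals include 0, and those of Flt1, Pdgfrb and Abcc9 are shorter with the covariate.

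Setting het beside wild-type mice addresses the effect of losing 1 copy of Cntnap2. It shares each group of libraries with the stress comparisons. In stressed mice, het against wild type, edgeR called 0 of 10 members, where 0.00627% of all genes were called, and 5 members were above and 5 below 0. Abcc9 lay lowest at -0.51 ± 0.58 (SE; 95% interval -1.79 to 0.76). Its TPM was 1.23, 1.24 and 0.91 in het mice and 1.13, 0.70 and 3.63 in wild-type mice, so the estimate rested on wild-type stressed replicate 3, and it became 0.34 without that library. The median of the 10 members was -0.0002, and -0.096 without wild-type stressed replicate 2. Rgs5 was 0.12 ± 0.13 and Slco1a4 0.13 ± 0.20.

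In control mice, het against wild type, edgeR called 0 of 10 members and 0.00627% of all genes, and 6 members were above and 4 below 0 with a median of 0.023, which became 0.17 without het control replicate 1. Acta2 was at 0.18 ± 0.25 (SE; 95% interval -0.37 to 0.72). With limma-voom and sample weights, which gives libraries unequal weight, Acta2 was called at 0.71 (adjusted p = 0.0303), the 1 member called by any tool. That fit called 6.19% of all genes in this comparison. In the other 7 contrasts it called 0 members, where it called 0.0877% of all genes for stress in het mice, 0.27% for stress in wild-type mice, 0.0188% for genotype in stressed mice and 0.313% between het stressed and wild-type control mice. It called 0.0376% for the stress average, 0.0627% for the genotype average and 0.0% for the interaction. The 3 het control values of Acta2 were 6.08, 9.74 and 14.81 TPM and the 3 wild-type control values 9.89, 5.86 and 12.05 TPM, so the groups overlapped.

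Het stressed mice against wild-type control mice gave 0 called members and 0.00627% called genes by edgeR, with 3 members above and 7 below 0. Averaged over condition, the genotype difference likewise gave 0 called members and 0.00627% called genes. The averaged values were 0.059 ± 0.16 for Cldn5, 0.085 ± 0.093 for Rgs5, -0.17 ± 0.32 for Flt1 and -0.36 ± 0.41 for Abcc9. At an unadjusted p under 0.05, edgeR passed 0 members in these 4 genotype comparisons, where 0.57% of all genes passed in stressed mice, 1.47% in control mice, 1.28% between het stressed and wild-type control mice and 0.708% averaged over condition.

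DESeq2 and limma-trend called 0 members in all 8 contrasts. The share of all genes that DESeq2 called was 0.0% for stress in het mice and the interaction, 0.0752% for stress in wild-type mice, 0.0188% for genotype in stressed mice and for stress averaged over genotype, and 0.0125% in the other 3 contrasts. For limma-trend it was 0.0% in the 4 contrasts of stress and interaction, 0.0125% for the genotype average and 0.00627% in the other 3 contrasts. In none of the 5 pairwise comparisons did the CPM of a member separate the 2 groups of 3 without overlap. Of all genes tested, 6.68% did so for stress in het mice, 5.79% for stress in wild-type mice, 5.19% for genotype in stressed mice, 3.38% for genotype in control mice and 6.31% between het stressed and wild-type control mice. Between 6 het and 6 wild-type mice on log2(TPM + 1), the exact permutation p ran from 0.42 for Cldn5 to 0.974 for Vtn.

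The levels of most members moved with the length slope of the library. On log2 CPM over 12 libraries, Abcc9 and the length slope had a Pearson r of 0.91 (permutation p = 4e-05, adjusted over 10 genes 0.0002) and a Spearman rho of 0.91 (permutation p = 0.00014). Abcc9 has an effective length of 6559 nt, the longest of the 10. Without the 2 libraries farthest from the median slope its r was 0.94, and it was 0.90 within het and 0.93 within wild-type libraries.

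Pdgfrb (5308 nt) had an r of 0.90, and Flt1 (6541 nt), Cdh5 (3886 nt), Pecam1 (3117 nt) and Slco1a4 (2601 nt) had r of 0.86 each. Rgs5 (3991 nt) had an r of 0.68. The 3 shortest transcripts differed from these: Vtn (1555 nt) had an r of 0.40 and Acta2 (1681 nt) of 0.14, with adjusted permutation p of 0.218 and 0.661, and Cldn5 (1314 nt) an r of -0.76 (adjusted permutation p = 0.00646; rho = -0.61). The Cldn5 relation weakened to an r of -0.46 without the 2 libraries farthest from the median slope, so it rested in part on those. In all, 8 of the 10 relations had an adjusted permutation p under 0.05 for Pearson's r. The share of all genes tested with such a relation was not worked out, so the count does not set the members apart. The length slope is computed from all genes tested, of which the 10 members are a small part. By its definition long transcripts in general climb with it and short ones fall. The permutation p-values do not allow for this, so they cannot show a trait of these genes beyond their length.

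The difference between long and short transcripts also showed within a library. The ratio of Flt1 to Cldn5, both endothelial, was 0.156, 0.133 and 0.136 in het stressed mice, 0.137, 0.0933 and 0.302 in wild-type stressed mice, 0.063, 0.153 and 0.212 in het control mice, and 0.0855, 0.140 and 0.324 in wild-type control mice. It was lowest in the 2 libraries of lowest length slope and highest in the 2 of highest. The ratio of Abcc9 (6559 nt) to Rgs5 (3991 nt), both mural, does not set a long against a short transcript. It ran from 0.0147 in het control replicate 1 to 0.0836 in wild-type stressed replicate 3. This ratio did not follow the slope throughout. It was 0.0203 in het stressed replicate 3, of slope 0.072, and 0.0211 in wild-type control replicate 1, of slope -0.27.

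With the length slope as a covariate, edgeR called 0 members in all 8 contrasts, and it called 0.0251% of all genes for the genotype average, 0.00627% in the 3 other contrasts that set het against wild-type libraries, and 0.0% in the 4 contrasts of stress and interaction. The standard error of the stress difference in wild-type mice was 0.19 instead of 0.45 for Flt1, 0.22 instead of 0.58 for Abcc9 and 0.074 instead of 0.13 for Rgs5, but 0.24 instead of 0.25 for Acta2. In this fit 9 of 10 members lay below 0 for stress in het mice and all 10 did so in wild-type mice, from -0.37 for Flt1 (95% interval -0.78 to 0.049) to -0.0089 for Pdgfrb. Averaged over genotype all 10 were below 0 as well, from -0.34 to -0.029, with a smallest unadjusted p of 0.0287 and a smallest adjusted p of 0.663, which is not past the threshold. For this fit neither the median over all genes tested nor their share at an unadjusted p under 0.05 was worked out. Many members also varied together over the libraries, so equal signs are not independent results. The genotype difference averaged over condition had 7 members above and 3 below 0 in the same fit.

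Markers of other cell types also differed between libraries, though edgeR called none of them in the 8 contrasts. The choroid plexus list of 8 markers summed to 12.95 to 578.1 TPM in het stressed mice, 6.64 to 25.98 TPM in wild-type stressed mice, 9.73 to 859.9 TPM in het control mice and 304.0 to 584.3 TPM in wild-type control mice, and its wild-type groups did not overlap. For stress 0 of its 8 genes were above 0 in either genotype. Its most abundant marker was Ttr, at 0.90 to 825.95 TPM, and Kcne2 and Kcnj13 were listed at 0 in at least 1 library. The meningeal and perivascular fibroblast list of 10 markers summed to 385 to 482 TPM in het stressed, 274 to 548 TPM in wild-type stressed, 218 to 563 TPM in het control and 456 to 805 TPM in wild-type control mice, most of it Apod at 190 to 758 TPM, while Col1a1 and Col3a1 stayed at or under 1.05 TPM. For stress 3 of its 10 genes were above 0 in het mice and 2 of 10 in wild-type mice.

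Red blood cell markers were also below 0 for stress, with 0 of 5 tested genes above 0 in either genotype and median log2 fold changes of -0.70 in het and -0.44 in wild-type mice. Their 6 measured genes summed to 1193 to 1369 TPM in het stressed mice, 762.1 to 1580 TPM in wild-type stressed mice, 1241 to 2100 TPM in het control mice and 1030 to 2184 TPM in wild-type control mice, and Slc4a1 was at or near 0. Of 7 ependymal markers 0 were above 0 for stress in het mice (median -0.71) and 3 in wild-type mice (median -0.48). That list summed to 21.14 to 53.33 TPM in het stressed, 31.62 to 47.58 TPM in wild-type stressed, 41.7 to 53.6 TPM in het control and 25.01 to 109.0 TPM in wild-type control mice, with Dnah11 and Hydin at or near 0. Of 7 oligodendrocyte markers 3 were above 0 for stress in het mice (median -0.020) and 0 in wild-type mice (median -0.52). Their sums were 9340 to 10990 TPM in het stressed, 6509 to 9389 TPM in wild-type stressed, 5058 to 10420 TPM in het control and 8760 to 13200 TPM in wild-type control mice, with none of the 7 at 0. Other lists went otherwise for stress. Of 7 astrocyte markers 6 were above 0 in het mice (median 0.23) and 3 in wild-type mice (median -0.18). Of 9 striatal neuron markers 0 were above 0 in het mice (median -0.078) and 9 in wild-type mice (median 0.12). Of 7 microglia markers 2 were above 0 in het and 0 in wild-type mice, and of 6 perivascular macrophage markers 3 in each. The part of all these cell types in the member values was not tested.

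**Figure D3:**
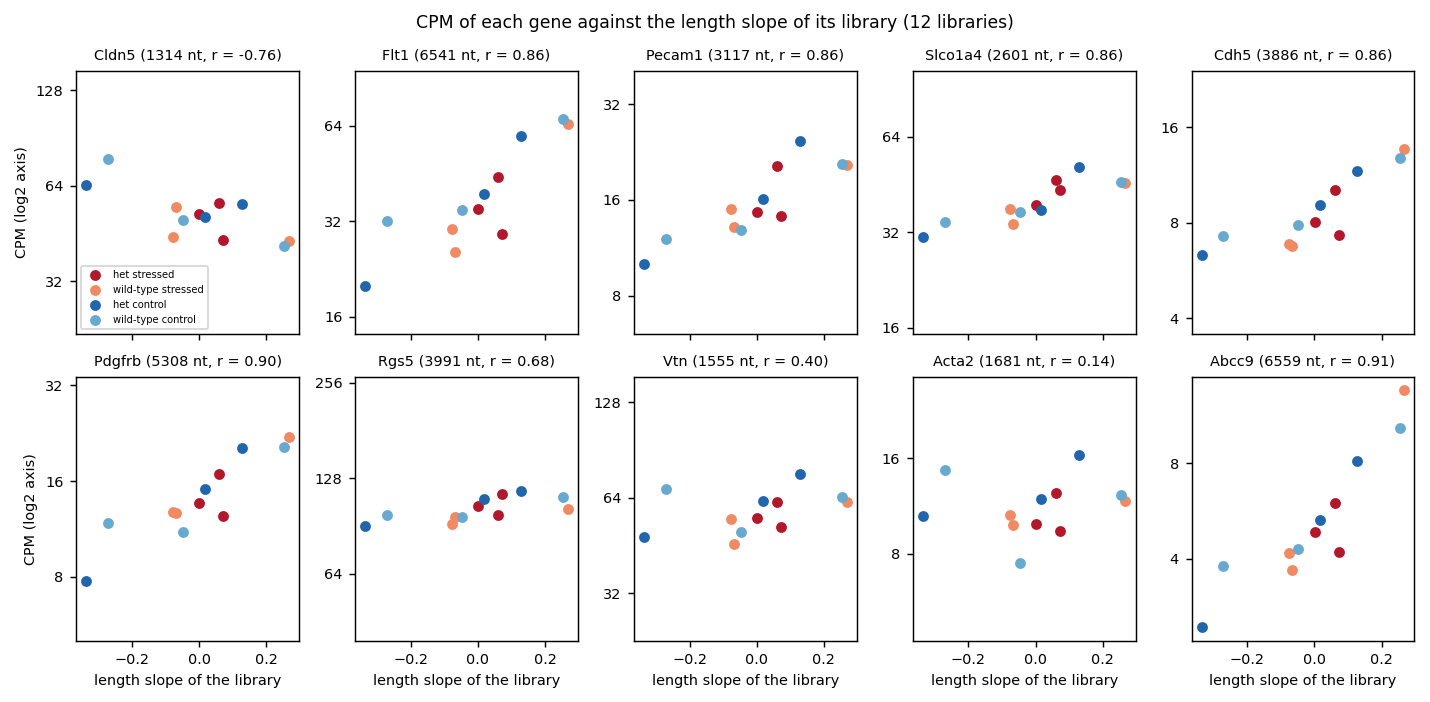
CPM of each gene (y axis, log2 scale) against the length slope of the library (x axis, no unit) in the 12 libraries, coloured by group, with the mean effective length and Pearson r above each panel. Cldn5 falls with the slope (r = -0.76), Abcc9 climbs with it (r = 0.91), and Acta2 shows little relation (r = 0.14).

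Of the 45 pairs of members, 21 had an adjusted permutation p under 0.05 for Pearson's r of log2 CPM, namely 6 of 10 endothelial pairs, 12 of 25 mixed pairs and 3 of 10 mural pairs. The median r was 0.84 among endothelial pairs, 0.64 among mixed pairs and 0.60 among mural pairs. Neither the share nor the median r was worked out for pairs of other genes, so these values do not set vessel genes apart.

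Flt1 and Cdh5 had an r of 0.97 and a rho of 0.97 (permutation p = 1e-05, the smallest that 100000 resamples can give; adjusted 9e-05), with an r of 0.96 without the 2 farthest libraries and of 0.99 within each genotype. The mixed pair of Flt1 and Abcc9 had an r of 0.97 and a rho of 0.96, with the same adjusted permutation p for r, and an r of 0.99 within het and 0.97 within wild-type libraries. Pecam1 and Pdgfrb had an r of 0.95. The 6 genes Flt1, Pecam1, Slco1a4, Cdh5, Pdgfrb and Abcc9 gave 15 of the 21 pairs. All 6 moved with the length slope, and the points share library, depth and scaling, so the relation of these genes to one another was not separated from that to the slope.

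The other 6 pairs joined Vtn with 5 genes and Rgs5 with 1. Vtn and Acta2, both of short transcripts, had an r of 0.87 and a rho of 0.89 (adjusted permutation p = 0.00125), and an r of 0.84 without the 2 farthest libraries. Acta2 passed the threshold with no other member. Vtn also passed it with Flt1 (r = 0.75), Pecam1 (0.71), Pdgfrb (0.70) and Cdh5 (0.69), with adjusted permutation p from 0.0144 to 0.0319. In these 4 pairs r was 0.92 to 0.98 within het and 0.41 to 0.60 within wild-type libraries. Cldn5 was past the threshold with none of the other 9 members, with r from -0.53 with Abcc9 to 0.36 with Acta2. The direction for Cldn5 turned with the scale: on log2(TPM + 1) all 9 of its r were positive, from 0.14 with Abcc9 to 0.61 with Acta2, and the pair with Acta2 passed (adjusted permutation p = 0.04). With Flt1 its r was -0.42 on log2 CPM and 0.36 on log2(TPM + 1). Rgs5 was past it with Slco1a4 alone, at an r of 0.70, which became 0.46 without the 2 farthest libraries.

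**Figure D4:**
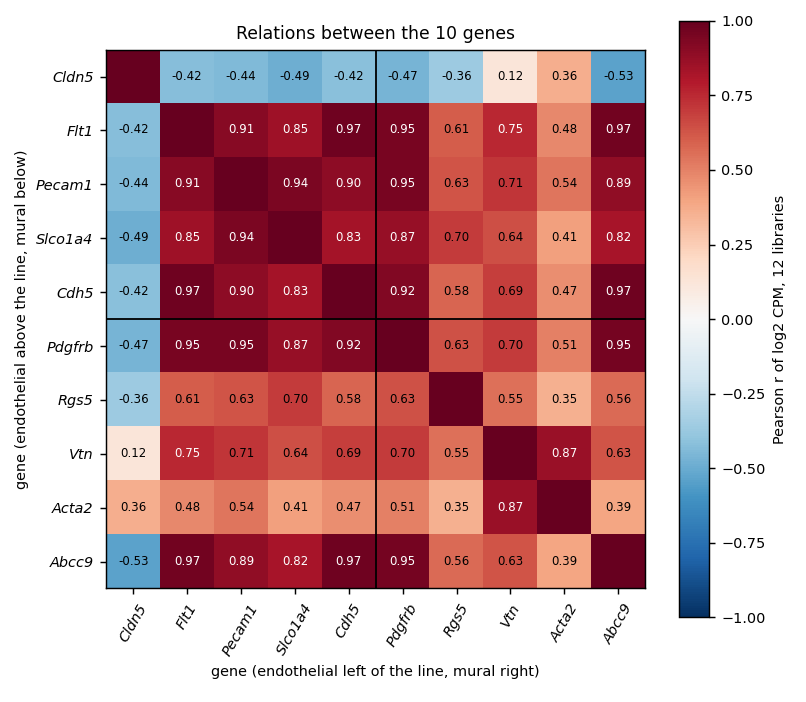
Pearson r of log2 CPM across 12 libraries for each pair of the 10 genes (rows and columns, endothelial first, then mural), from -1 in blue to 1 in red. The row of Cldn5 runs from -0.53 to 0.36, and the pairs among Flt1, Cdh5, Pdgfrb and Abcc9 lie between 0.92 and 0.97.

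Transcript levels were also given for each gene. Cldn5, Cdh5 and Acta2 each had 1 transcript above 0 TPM, and Pecam1 had 6, the most of the members. Flt1 was split between a long transcript of 6895 nt (ENSMUST00000031653.5), with 54.03 to 66.5% of its TPM, and one of 6292 nt (ENSMUST00000110529.1), with 33.5 to 45.97%.

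The short Vtn transcript of 678 nt (ENSMUST00000153628.1) carried 0.97, 1.29 and 0 TPM in het stressed mice, 1.91, 3.74 and 7.55 TPM in wild-type stressed mice, 6.79, 1.52 and 3.67 TPM in het control mice, and 12.11, 3.41 and 3.73 TPM in wild-type control mice. Its share of the gene was 22.03% in wild-type control replicate 1 and 20.68% in het control replicate 1, the 2 libraries of lowest length slope, and at most 10.96% elsewhere. The 622 nt transcript of Slco1a4 (ENSMUST00000163678.1) went the other way, with 15.4% and 19.7% of the gene's TPM in those 2 libraries and 27.3 to 39.2% in the other 10. These are estimates of how reads divide among overlapping transcripts, and no test was made.

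The genes outside the list that followed the endothelial members most closely, by Pearson r of log2 CPM with their mean z-score over 12 libraries, were Podxl (0.96), the drug efflux transporter gene Abcb1a (0.96), Cavin1, a coat protein of caveolae (0.95), Cyyr1 (0.94) and the chemokine gene Cxcl12 (0.94). The genes that followed the mural members most closely were Fam20c (0.98), Podxl (0.97), the transcription factor gene Foxc1 (0.96), Slc32a1, the vesicular GABA transporter of inhibitory neurons (0.96), and Xdh (0.94). These 9 genes also moved with the length slope, with r from 0.68 for Foxc1 to 0.88 for Abcb1a, and Slc32a1 at 0.83.

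Other genes of the vessel wall were described by lists chosen for their role. Of their 128 genes tested, 0 were called by edgeR, DESeq2 or limma-trend in the 8 contrasts, and limma-voom with sample weights called 10, all in het against wild-type control mice, which is 7.81% of the 128 where it called 6.19% of all genes. By edgeR at an unadjusted p under 0.05, 0 of the 128 passed for stress in het mice, where 1.12% of all genes passed. For stress in wild-type mice 4 passed, or 3.12% against 2.49% of all genes, for genotype in stressed mice 1 passed, or 0.781% against 0.57%, and for genotype in control mice 2 passed, or 1.56% against 1.47%. These shares lie near those over all genes. Of 25 other endothelial junction and identity genes, 4 were above and 21 below 0 for stress in het mice (median log2 fold change -0.16), and 7 above and 18 below in wild-type mice (median -0.14). In het mice the 2 with the smallest p were Emcn, a surface mucin of capillary and venous endothelium, at -0.27 ± 0.14 and Ctla2a at -0.45 ± 0.26 (edgeR adjusted p = 0.99995 for both). In wild-type mice they were F11r, a junctional adhesion molecule, at -0.24 ± 0.12 and Cd34 at -0.34 ± 0.19.

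Of the 16 transporters of the barrier, 13 were above and 3 below 0 for stress in het mice (median 0.072), and 6 above and 10 below in wild-type mice (median -0.053). Slc16a1, which carries lactate and ketone bodies, had the smallest p of the list for stress in wild-type mice, at -0.54 ± 0.15 (edgeR adjusted p = 0.99992). Its TPM was 6.01, 6.93 and 8.41 in wild-type stressed mice and 7.20, 9.04 and 14.84 in wild-type control mice. These values overlapped, since the highest stressed value lay above the lowest control value.

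Of 16 other pericyte genes, 5 were above and 11 below 0 for stress in het mice (median -0.10), and 7 above and 9 below in wild-type mice (median -0.049). The potassium channel gene Kcnj8, whose product pairs with that of Abcc9, was at -0.30 ± 0.20 in het mice, and Mcam at -0.42 ± 0.22 in wild-type mice. Of the 14 contractile genes of smooth muscle, 12 were tested, and 3 were above and 9 below 0 for stress in het mice and 6 and 6 in wild-type mice. Pln, the regulator of the calcium pump, was at -1.51 ± 0.57 in wild-type mice (edgeR adjusted p = 0.99992). Its 3 wild-type stressed values were 0.53, 0.42 and 0.43 TPM and its wild-type control values 0.44, 0.78 and 3.13 TPM, so 1 control library was far above the others.

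Ligands and partners of the VEGF, angiopoietin, PDGF and Notch pathways divided 7 above and 10 below 0 for stress in het mice and 10 above and 7 below in wild-type mice. Nrp2, a co-receptor for VEGF family ligands, was at 0.66 ± 0.30 in het mice and 0.59 ± 0.30 in wild-type mice (edgeR adjusted p = 0.99995 and 0.99992). Its TPM was 2.36, 2.19 and 3.09 in het stressed mice, against 1.32, 0.98 and 1.41 in het control mice, and these 2 groups did not overlap. On CPM, 6.68% of all genes tested separated the same 2 groups, and Nrp2 was picked from its list by its p. In wild-type mice Nrp2 was at 2.27, 1.39 and 4.65 TPM in stressed and 1.47, 1.48 and 2.20 TPM in control mice, with overlap.

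The 16 genes of the Wnt pathway that maintains the barrier divided 7 above and 9 below 0 for stress in het mice and 12 above and 4 below in wild-type mice. The ligand gene Wnt7a was at 0.34 ± 0.14 for stress in wild-type mice and at 0.39 ± 0.14 for het against wild type in control mice (edgeR adjusted p = 0.99992 and 0.99999), and both contrasts use the same 3 wild-type control libraries. Of the 14 genes of the vascular basement membrane, 8 were above and 6 below 0 for stress in het mice (median 0.038). In wild-type mice 6 were above and 8 below (median -0.031). Sparc had the smallest p of the list there, at -0.64 ± 0.24 (edgeR adjusted p = 0.99992). For het against wild type, 3 were above and 11 below 0 in stressed mice (median -0.16). In control mice 2 were above and 12 below (median -0.16). Averaged over condition all 14 were below 0, and none was past the threshold. Their median was -0.088, against 0.0008 over all genes tested and 0.052 over the 10 members. How far these genes vary together was not worked out, so equal signs may not be independent results. Depth and genotype cannot be told apart in these comparisons. The genes of the hypoxia response divided 6 above and 6 below 0 for stress in het mice and 4 above and 8 below in wild-type mice.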

How the data were processed

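RNA was measured in striatum of 12 mice, 3 in each of 4 groups read from the labels. The submitters' processing notes name RSEM, Bowtie and mm9 (NCBIM37) for the RNA, without versions; strand use is not stated, so antisense or overlapping genes cannot be told apart. The deposited files give an expected count, a TPM and an effective length per gene, and a TPM per transcript, with 1 file per library, per the file headers. Libraries held 13587154 to 24039706 expected counts, and no replicate pair was a duplicate (chi-square per gene from 8.91 to 220).

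The quasi-likelihood test of edgeR 4.0.16 (R 4.3.3; glmQLFit with robust dispersion, 4 group means) was run on rounded expected counts of all 12 libraries after filterByExpr and TMM scaling. Of 37289 genes 15955 were tested, with two-sided tests, Benjamini-Hochberg adjustment per contrast (8 in all) and a threshold of 0.05. The biological coefficient of variation was 0.256. The script was tested on simulated data with 200 genes changed in the stress comparison of wild-type mice. At 2-fold 12.5% of these genes were recovered with 0 false calls, and at 4-fold 81% with 7 false calls. Most 2-fold changes were therefore missed. Alternatives were DESeq2 1.42.0, limma 3.58.1 (trend; voom with sample weights), upper-quartile scaling, no filter, only the groups compared, a replicate block, the length slope as a covariate, and each library left out. Relations between members used log2 CPM with a prior count of 2 and 100000 resamples (scipy 1.17.1), and exact permutation tests used log2(TPM + 1); 6 against 6 can reach p = 0.00216.

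Named genes are the 10 members, in each list the 2 genes with the smallest edgeR p in the contrast described, and the 5 genes most alike to each member class; from these, single genes were picked for the text. The members and lists were chosen with earlier results of these data known. The 5hmC tables were not used here.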

Additional observations from a re-analysis of the deposited data

Results flagged for a closer look

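In the 6 stressed mice, Abcc9 was at 3.63 TPM in wild-type stressed replicate 3, far from the other 5 stressed mice, with a gap to the nearest of 0.816 of the range of the 6 values. This was 1 of 40 combinations of gene and group of 6 mice examined, and chance alone flags about 1 in 20. The library had the highest length slope of the 12, at 0.27, and the part of the slope in this value was not tested.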

How the results depend on the processing

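No member was called in any of the 8 contrasts by edgeR, DESeq2 or limma-trend, with upper-quartile scaling, without a filter, with only the groups compared, with the length slope as a covariate or without any single library. The exception among all settings was limma-voom with sample weights, which called 1 member, Acta2, in het against wild-type control mice; it also gave Acta2 a value of 0.063 for stress averaged over genotype, against -0.20 with edgeR. Cldn5 for stress in wild-type mice was -0.25 and ranged from -0.44 to 0.054 when 1 library was left out, and was 0.063 without both libraries of lowest length slope, a setting chosen after seeing the data. Of 1650 member values under an alternative, 240 had the opposite sign to the main value, 161 of them when 1 library was left out. On log2(TPM + 1) 37 of 45 pairs passed the threshold, against 21 on log2 CPM, and the 7 negative r of Cldn5 became positive; the cause was not tested. The labels do not say that replicate numbers pair mice, and same-numbered libraries had correlations of -0.256 to 0.674; with a replicate block 0 members were called, and the median for stress in wild-type mice was -0.060. With 3 mice a group, the intervals of Abcc9 and Flt1 for stress in wild-type mice extend past 2-fold in at least 1 direction.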
